A study of Mus musculus with 15 samples.

Results

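Transcript levels of the mouse hippocampus were compared between mice that lacked the glucocorticoid receptor (GR) in the forebrain and controls, with the mineralocorticoid receptor (MR) present in both. The comparison rests on 8 of the 15 arrays of the study, the 4 arrays of GREmx1-cre mice and the 4 arrays of dflox control mice, each array holding the RNA of 1 labelled sample. The dflox mice carried floxed alleles of both receptor genes, Nr3c1 (GR) and Nr3c2 (MR), with no Cre. The GREmx1-cre mice came from a cross of the floxed GR allele alone with Emx1-Cre, so that, by the design as stated, they carry no floxed Nr3c2 allele. A second pair of groups gave the same loss of GR where MR was missing too: 3 GRMREmx1-cre mice, from the dflox cross with Emx1-Cre, against 4 MREmx1-cre mice, from the floxed MR allele with Emx1-Cre. All mice were males of strain C57BL/6, about 2.5 months old, and the RNA was total RNA of the whole hippocampus of both hemispheres. The labels do not say whether the samples of a group came from separate litters, so the p-values measure the spread between these samples.

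GR and MR are steroid receptors that bind corticosterone, move to the nucleus and switch genes on or off at short DNA sequences called glucocorticoid response elements. MR binds the hormone more tightly and is occupied at rest, while GR fills during stress and at the daily hormone peak, and the hippocampus is a tissue in which both are abundant. Emx1-Cre is active from early development in the cells of the dorsal forebrain that give rise to pyramidal and granule neurons and to many astrocytes, and not in microglia, vessels or most interneurons. In whole tissue, fewer cells of a type and less RNA per cell cannot be told apart.

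Levels are log2 intensities relative to each array's 75th percentile, so that a level of 0 is the 75th percentile and 1 unit is a 2-fold step. Changes are log2 differences of group means ± the standard error (SE) of the limma fit, and a gene was called when limma's adjusted p, after Benjamini-Hochberg adjustment over all 22862 genes tested, was at most 0.05. Arrays were of like brightness (75th percentile 821 to 1027) with 0 saturated spots, and each had 28083 to 30206 probes well above background. All 19 tested markers of dentate granule cells and all 12 of CA1 pyramidal cells were well above background on all 8 arrays, as the labelled tissue would require. Each genotype was run alone on a slide of its own, and for every value below the slide's part and the genotype's cannot be told apart. GREmx1-cre replicate 1 had 188 outlier spots, against 53 to 103 on the other arrays, and the highest mean level of thalamus and habenula markers among the 8 arrays (0.48 above the mean of all arrays, against -0.17 to 0.12 on the others).

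Nr3c1, the targeted gene, had log2 levels of 1.5, 1.79, 1.77 and 1.49 in dflox and of -0.66, -0.53, -0.64 and -0.58 in GREmx1-cre. Every GREmx1-cre array lay below every dflox array, and the Nr3c1 transcript fell by 2.24 ± 0.0776 to 21.2% of its dflox level (adjusted p = 1.36e-08 in limma). The other 3 tested probes of the gene gave changes between -1.96 and -1.64. Whether any of these probes lies in the deleted part of the gene is not known here. Nr3c2, which encodes MR, read -3.45, -3.36, -3.65 and -3.57 in dflox and -3.09, -3.15, -3.06 and -3.04 in GREmx1-cre. The groups did not overlap, and Nr3c2 was higher by 0.42 ± 0.0859 (adjusted p = 0.0212 in limma). That call was lost without GREmx1-cre replicate 3 (0.41), without GREmx1-cre replicate 4 (0.41) and without dflox replicate 3 (0.37), and the other 2 tested probes of Nr3c2 gave 0.16 and 0.51. In the groups labelled as lacking MR, the Nr3c2 probe read -3.76 to -3.46 in MREmx1-cre, overlapping dflox (a difference of -0.11, adjusted p = 0.480 in limma), and -4.01 to -3.71 in GRMREmx1-cre. This probe therefore did not register a loss of MR transcript in the libraries labelled MREmx1-cre. Whether it lies outside the deleted part of Nr3c2 is not known here, and "without MR" below means without MR by the labels of those libraries.

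**Figure D1:**
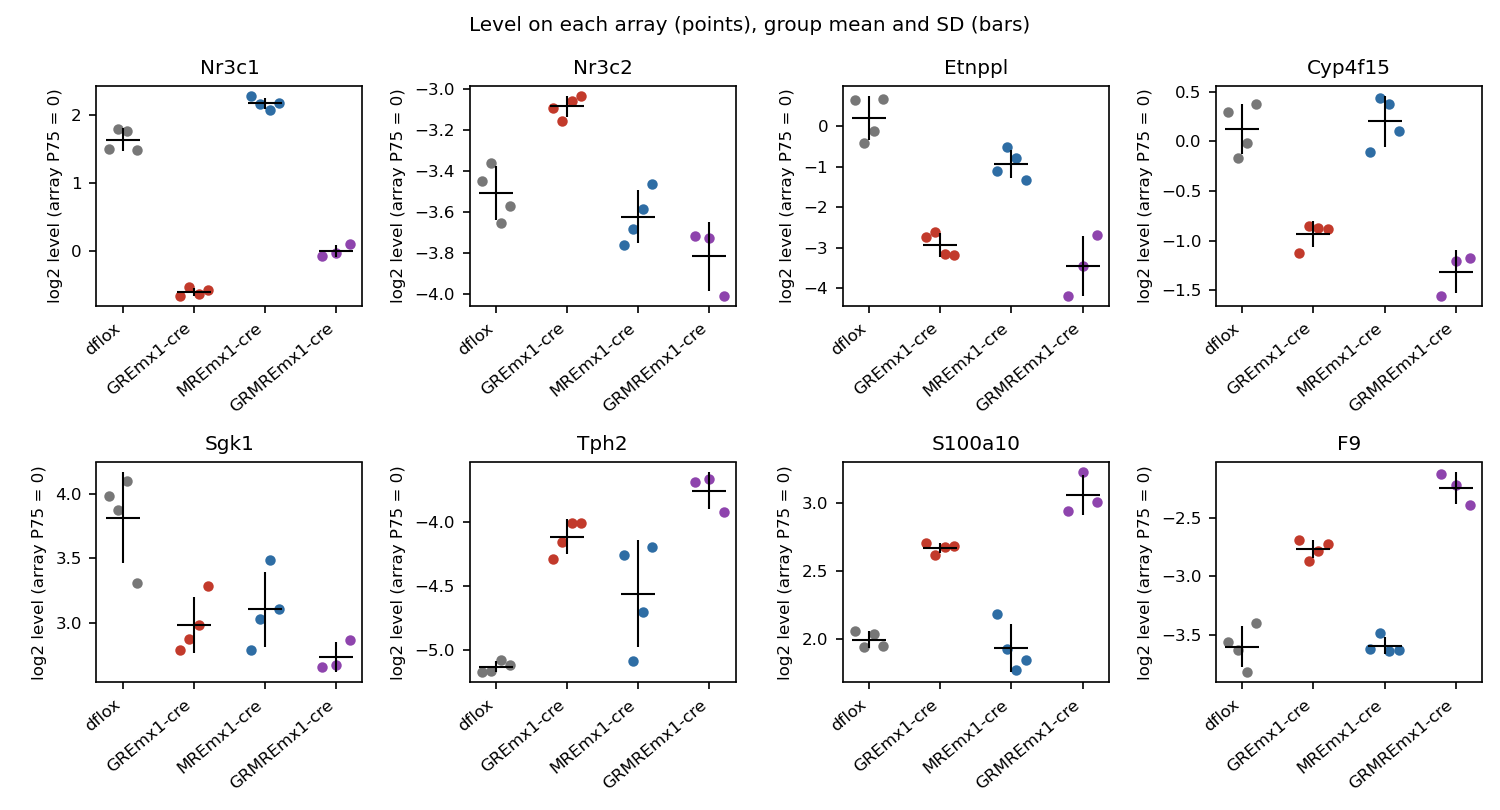
Log2 level relative to the array's 75th percentile (vertical axes) of 8 genes on each of the 15 arrays, by group (horizontal axes), with group means and standard deviations as bars. Nr3c1, Etnppl and Cyp4f15 are lower, and S100a10 and F9 higher, on every array of both groups that lack GR than on every array of the group each is compared with.

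Across all genes, 722 were called, which is 3.16% of those tested. Of these, 518 were higher in GREmx1-cre (2.27% of genes tested) and 204 lower (0.892%). With another scaling of the arrays the balance moved: rises made up 71.7% of calls as scaled here, 56.1% of 440 calls after scaling to the median and 56.3% of 467 calls after quantile normalization. The rises sat among dim genes. With the genes split by mean level into 4 equal bands, in the lowest band, 202 genes rose and 24 fell, and in the highest band 31 rose and 41 fell. The same lean towards rises of dim genes was present when the 3 GRMREmx1-cre arrays were set against the 4 MREmx1-cre arrays, where 207 genes of the lowest band rose and 20 fell. The median level of that band lay between -5.65 and -5.47 on the dflox arrays and between -5.49 and -5.36 on the GREmx1-cre arrays, and the part of this shift in the calls was not tested. At an unadjusted p below 0.05, 4369 genes differed, and 236 genes were both called and changed at least 1.5-fold (186 rises, 50 falls). The arrays of the groups did not overlap for 12.7% of all genes. The 8 arrays fitted alone gave 346 calls, and background correction by normexp left 13. The count was 268 without dflox replicate 3, 324 and 334 without GREmx1-cre replicates 4 and 3, and 465 and 469 without GREmx1-cre replicate 1 and dflox replicate 1.

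Among the 15937 tested genes with a gene symbol, 503 were called, and 81 of these lie on chromosome 8, the chromosome of Nr3c2. That is 9.89% of the 819 genes tested there, against 1.49% to 3.74% on the other 19 chromosomes with over 100 tested genes. The excess was not spread along the chromosome. With the 819 genes put in order, Nr3c2 is gene 387, and the stretch from gene 251 to gene 550 held 66 called genes of 300 (22.0%), with 32 rises and 34 falls, while the rest of the chromosome held 15 of 519 (2.89%). The ends of that stretch were chosen after the calls were seen. By the window of 100 tested genes on either side of Nr3c2, 48 of 200 were called (24.0%), 25 higher and 23 lower. In the comparison without MR, in which both groups derive from floxed Nr3c2, 4 of the same 200 genes were called (2%), near the 2.98% called among all genes there.

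Of the genes on chromosome 8, the 6 rises and 6 falls named here by size all lay in the stretch, and they are known for unlike functions. Crnde, a long non-coding RNA gene, read -5.56, -6.31, -5.27 and -6.20 in dflox and -3.20, -3.06, -3.47 and -3.20 in GREmx1-cre, a rise of 2.60 ± 0.207 with no overlap (adjusted p = 4.71e-05 in limma). Il15, a cytokine that sustains natural killer and memory T cells, was higher by 1.74 ± 0.399. Crnde on dflox replicate 2 lay below every probe well above background on that array (lowest -6.13). The same held for Il15 on dflox replicate 4 (-8.09, against a lowest of -6.40). The sizes of these rises are therefore uncertain. Slc5a5, the sodium-iodide transporter, was higher by 1.59 ± 0.215. Slc35e1, a member of the nucleotide sugar transporter family, rose by 1.06 ± 0.0844, Gm10033 by 1.005 ± 0.0916 and the zinc finger gene Zfp330 by 0.96 ± 0.0787. The second probe of Slc35e1 gave -0.39 and that of Zfp330 gave 0.13, so neither gene's change holds for both of its probes.

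Among the falls, Lpl, the lipase that releases fatty acids from circulating lipoproteins, read 3.13, 3.16, 2.98 and 3.04 in dflox and 2.70, 1.31, 1.41 and 1.59 in GREmx1-cre. Replicate 1 lay between the other 3 GREmx1-cre arrays and dflox, and the mean fell by 1.33 ± 0.230 (adjusted p = 0.0107 in limma). Ocel1, a gene with an occludin-like domain, showed the same arrangement more sharply: 2.16, 2.26, 2.15 and 2.14 in dflox against 1.37, -0.70, -0.82 and -0.68 in GREmx1-cre. Ccl17, a chemokine that draws T cells through CCR4, fell by 1.32 ± 0.173 from dflox levels between -1.88 and -1.66 to levels between -3.52 and -2.55. Fam32a fell by 1.06 ± 0.0790 (its second probe gave -0.03), Il12rb1, a subunit of the receptors for IL-12 and IL-23, by 0.998 ± 0.170, and Klf1, an erythroid transcription factor, by 1.59 ± 0.352. Without MR, the change of each of these 12 genes was between -0.41 and 0.40, and none was called. The call of Il15 was lost without any 1 of 6 of the 8 arrays (GREmx1-cre replicates 1 to 4, dflox replicates 1 and 3) and that of Klf1 without any 1 of 4 (GREmx1-cre replicates 1, 2 and 4, dflox replicate 2), with changes from 1.28 to 1.96 and from -1.78 to -1.24.

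**Figure D2:**
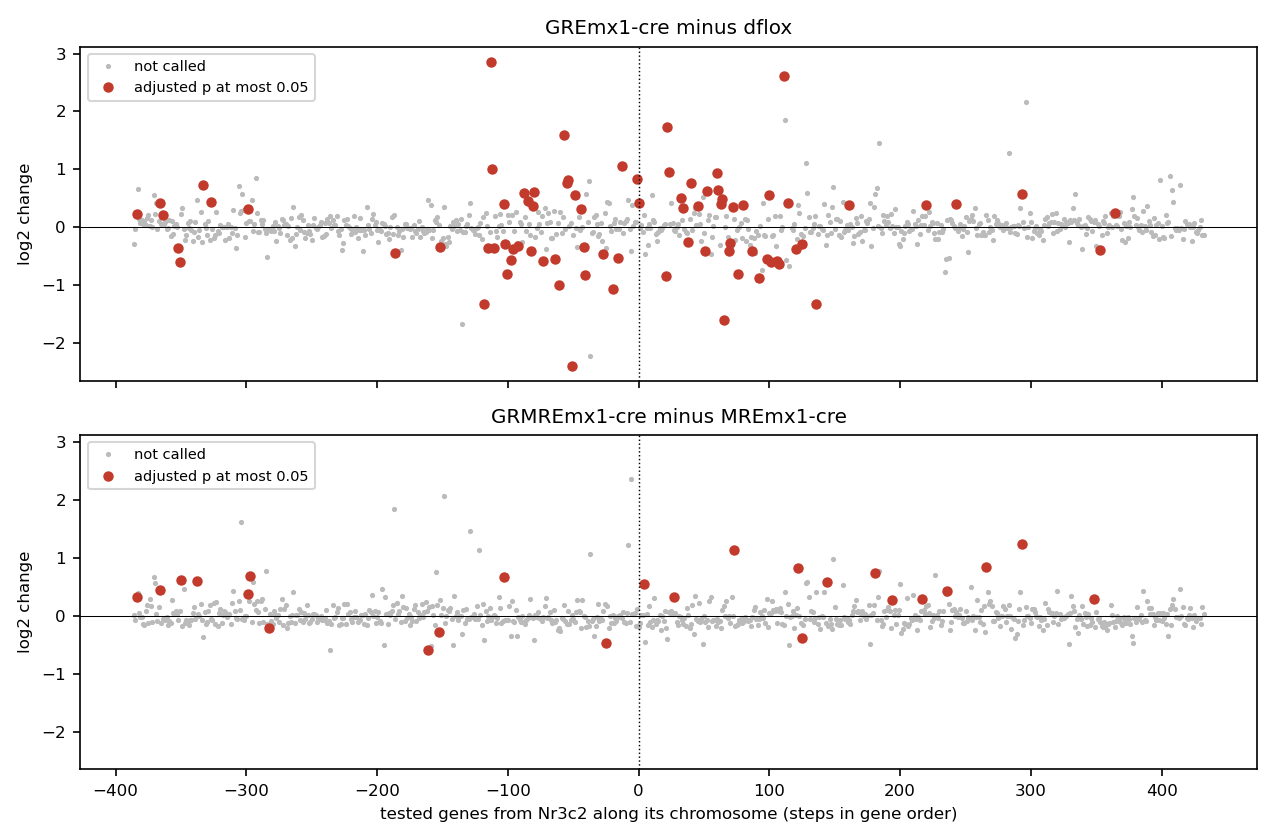
Log2 change of the 819 tested genes of chromosome 8 (vertical axes) against their place in gene order from Nr3c2 (horizontal axis, dotted line at Nr3c2), for GREmx1-cre minus dflox and for GRMREmx1-cre minus MREmx1-cre. Called genes are red. In the upper panel 66 of the 81 called genes lie in 1 stretch around Nr3c2, and the lower panel has 24 called genes with no such stretch.

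The 4 GREmx1-cre mice were not alike along this stretch. For each called gene, the place of an array was put on a scale on which 0 is the dflox mean and 1 is the mean of the other 3 GREmx1-cre arrays. Over the 27 called genes from gene 251 to gene 350, before Nr3c2, the median place of replicate 1 was 0.52, while the medians of replicates 2, 3 and 4 were 1.21, 1.22 and 1.10. Over the 28 called genes from gene 401 to gene 500, after Nr3c2, replicate 3 had a median of 0.61 and replicates 1, 2 and 4 had 1.13, 1.08 and 1.22. Replicate 1 thus stood about midway to dflox on one side of Nr3c2 and replicate 3 on the other, and over the 6 called genes from gene 351 to gene 400, Nr3c2 among them, all 4 medians were between 0.95 and 1.16. The next called genes after Nr3c2 in that order, Inpp4b, Il15 and Zfp330, lie outside those 6 and read 0.42, 0.65 and 0.68 on replicate 3. The 48 called genes of the 200-gene window lay a median of 0.51 to 0.62 from the dflox mean on the GREmx1-cre arrays, of 0.11 to 0.16 on the MREmx1-cre and GRMREmx1-cre arrays, and of 0.04 to 0.07 on the dflox arrays themselves. Both Cre-carrying groups that derive from floxed Nr3c2, with and without GR, lay nearer to dflox than GREmx1-cre did. The 48 genes were picked by their call in GREmx1-cre against dflox, which by itself sets the GREmx1-cre arrays far from dflox. This order of the groups is therefore not a test, and no conclusion is drawn from it. Loss of GR with MR present, the Nr3c2 allele (floxed in dflox and, by the design, not in GREmx1-cre) and the slide cannot be told apart for these genes.

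**Figure D3:**
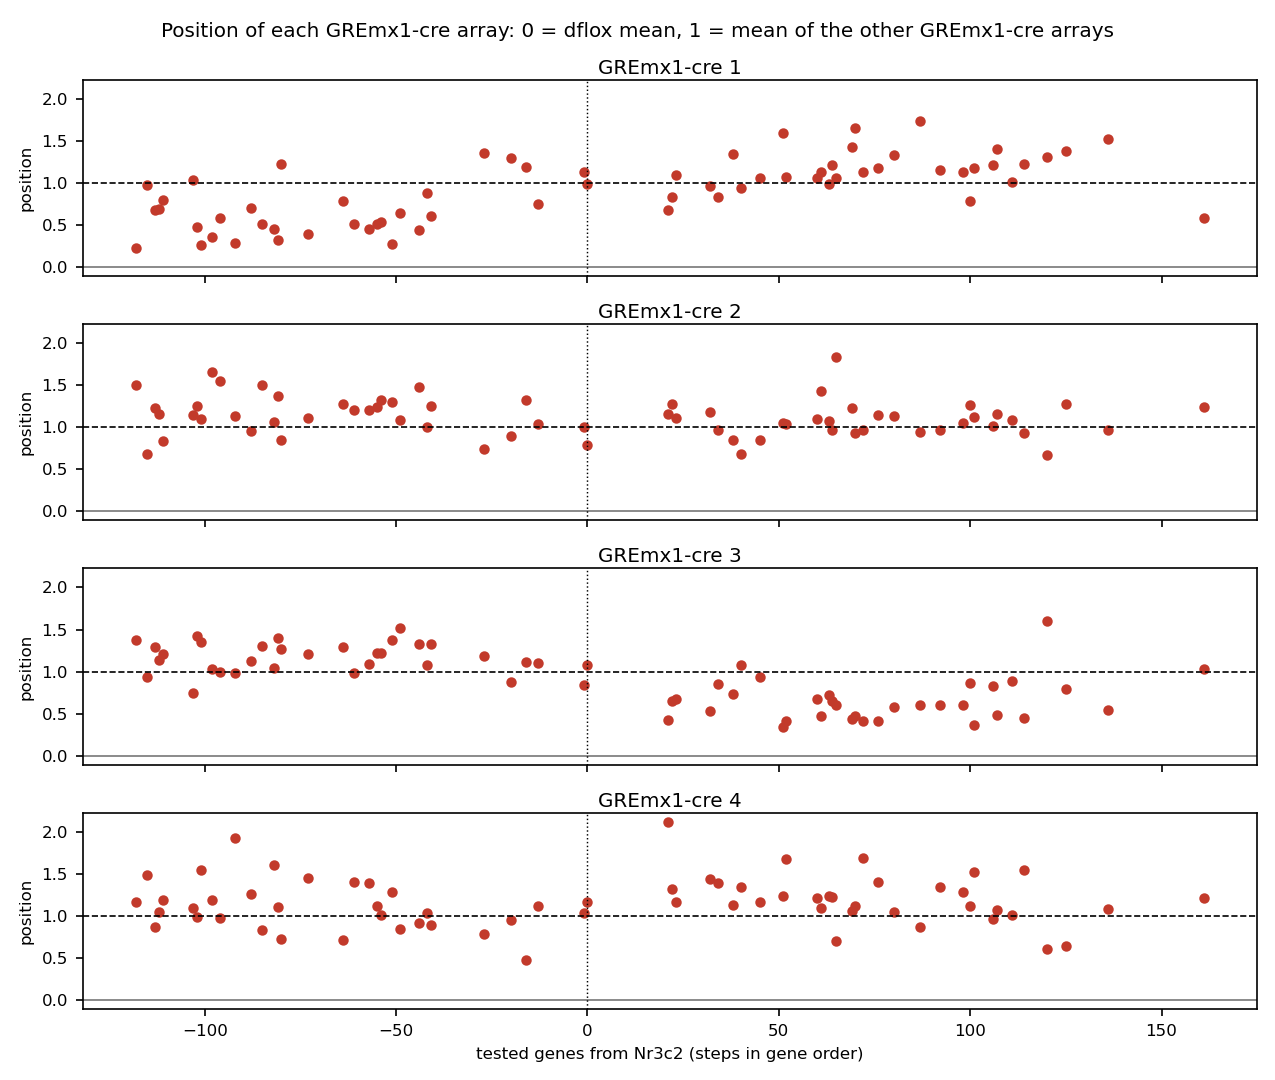
Place of each GREmx1-cre array (one panel each) on a scale from the dflox mean (0, grey line) to the mean of the other 3 GREmx1-cre arrays (1, dashed line), for the 66 called genes between gene 251 and gene 550 of chromosome 8, in gene order from Nr3c2. Replicate 1 falls to a median of 0.52 before Nr3c2 and replicate 3 to 0.61 after it, while replicates 2 and 4 stay near or above 1 on both sides.

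Near Emx1 itself, on chromosome 6, 8 of the 200 neighbouring genes were called (4%), against 2.79% of all genes with a symbol off chromosome 8. Without MR, where both groups carry Cre, 12 of those 200 were called (6%, against 2.98% of all genes there). Nat8f5, an acetyltransferase family gene, was the largest of the 8: it read -1.63, -1.67, -1.38 and -1.35 in dflox and -3.64, -2.24, -3.64 and -2.33 in GREmx1-cre, a fall of 1.45 ± 0.279 (adjusted p = 0.0169 in limma, and lost without dflox replicate 3, where it was -1.41). The 4 GREmx1-cre arrays fell into 2 low and 2 intermediate values, all below dflox. Tia1, a stress granule protein gene, fell by 0.37 ± 0.0806 (the call was lost without 1 array in 5 of 8 cases) and Eva1a by 0.36 ± 0.0667, while Tlx2, a homeobox gene of the enteric nervous system, rose by 0.97 ± 0.124 and the pheromone receptor gene Vmn1r47 by 0.73 ± 0.0948. Around Nr3c1 itself on chromosome 18, none of 200 neighbours was called in limma (0 calls), and 4 were called without MR (2%, against 2.98% of all genes).

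Away from chromosome 8, 422 genes with a symbol were called (304 higher and 118 lower). The largest called fall was Etnppl, which encodes the enzyme that breaks down phosphoethanolamine, an intermediate of membrane lipid synthesis, and which in brain is an astrocyte gene. Its levels were 0.65, -0.42, -0.12 and 0.66 in dflox and -2.74, -2.60, -3.17 and -3.19 in GREmx1-cre. All GREmx1-cre arrays lay over 2 log2 units below every dflox array, and Etnppl fell by 3.11 ± 0.324, to 11.5% of dflox (adjusted p = 0.000562 in limma). Cyp4f15, a cytochrome P450 that oxidises fatty acids and leukotrienes, read 0.29, -0.16, -0.01 and 0.37 in dflox and -1.12, -0.85, -0.87 and -0.88 in GREmx1-cre. It fell by 1.06 ± 0.147, to 48.1%, with no overlap (adjusted p = 0.00345 in limma), and both calls stood when any 1 of the 8 arrays was left out.

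Sgk1, a serum- and glucocorticoid-induced kinase that regulates ion channels and transporters, read 3.98, 3.88, 4.10 and 3.31 in dflox and 2.79, 2.87, 2.98 and 3.29 in GREmx1-cre. The lowest dflox array and the highest GREmx1-cre array were close, and Sgk1 fell by 0.83 ± 0.179 (adjusted p = 0.0261 in limma). Its call was lost without any 1 of GREmx1-cre replicates 1, 2 and 3 and dflox replicates 1, 2 and 3, with values from -0.74 to -1.003 over all 8 such fits, and also with the 8 arrays fitted alone (adjusted p = 0.0767). One of the 6 annotated Sgk1 starts in RefSeq (GRCm38.p6) has the full response element, AGAACA, then any 3 bases, then TGTTCT, in its promoter window, chr10:21993640-21993939 on the plus strand. It is printed because 3 of 32851 promoter windows of the same 300 bases hold that motif (0.00913%, both strands searched, Sgk1 among them). Capitals mark the full element and, near the 5′ end, a further single TGTTCT, a sequence that 19.0% of all windows hold on either strand and that the full element contains on both.

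Sgk1: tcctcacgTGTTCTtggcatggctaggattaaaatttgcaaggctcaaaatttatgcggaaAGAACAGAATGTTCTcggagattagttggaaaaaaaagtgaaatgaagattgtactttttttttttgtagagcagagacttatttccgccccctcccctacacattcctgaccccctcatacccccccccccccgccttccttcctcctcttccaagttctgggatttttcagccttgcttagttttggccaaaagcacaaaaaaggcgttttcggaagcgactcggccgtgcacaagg

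Of the 22 windows of the called falls that the naming rule picked off chromosome 8, 4 held TGTTCT on either strand (18.2%, against 19.0% of all windows). Of those 4 windows, 3 are of Sgk1, and the windows of Etnppl and Cyp4f15 held none. A match describes the letters and does not show binding.

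The other large falls away from chromosome 8 were of varied function. Polr3e, a subunit of RNA polymerase III, was lower by 0.91 ± 0.131 (its second probe gave -0.10). Col3a1, a fibrillar collagen, read between -1.32 and -0.90 in dflox and between -2.27 and -1.69 in GREmx1-cre, a fall of 0.86 ± 0.145. Plekhf1, a phosphoinositide-binding endosomal protein, fell by 0.85 ± 0.182, Gm9895 by 0.84 ± 0.162, and Aoc3, an amine oxidase of vessel walls, by 0.76 ± 0.135. Heph, a copper-dependent ferroxidase, fell by 0.67 ± 0.127. Sparc fell by 0.65 with MR present, and its change without MR was -0.45, not called. Fam83d, a mitotic spindle gene, fell by 1.01 ± 0.242, and Apoc3, an apolipoprotein of liver, by 0.92 ± 0.207. Fam83d was well above background on 3 of the 4 GREmx1-cre arrays. The calls of Polr3e, Col3a1 and Aoc3 stood without any 1 array. Those of Gm9895 (-0.85) and Heph (-0.60) were lost without dflox replicate 3, that of Plekhf1 without any 1 array except dflox replicate 4, that of Fam83d without any 1 except dflox replicate 3, and that of Apoc3 without any 1 except GREmx1-cre replicate 2 and dflox replicate 4.

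Of the rises away from chromosome 8, S100a10 was one of the brighter genes. It encodes p11, a partner of annexin A2 that brings ion channels and serotonin receptors to the cell surface, and it is also counted among reactive astrocyte genes. It read 2.06, 1.94, 2.04 and 1.95 in dflox and 2.70, 2.61, 2.67 and 2.68 in GREmx1-cre. The groups did not overlap, and S100a10 rose by 0.67 ± 0.0831, or 1.59-fold (adjusted p = 0.00194 in limma). Tph2, the rate-limiting enzyme of serotonin synthesis in neurons, whose message is made mainly in the raphe nuclei, read -5.17, -5.17, -5.08 and -5.12 in dflox and -4.29, -4.16, -4.01 and -4.002 in GREmx1-cre. It was dim but well above background on all 8 arrays, and rose by 1.02 ± 0.160 with no overlap (adjusted p = 0.00644 in limma). F9, coagulation factor IX, rose by 0.83 ± 0.0846 from levels between -3.82 and -3.40 to levels between -2.87 and -2.69. None of these 3 calls was lost when any 1 of the 8 arrays was left out.

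The other rises named by size were dim. Chil3, a chitinase-like gene of macrophages, was higher by 1.14 ± 0.247, the intestinal peptide gene Tff1 by 0.87 ± 0.151, Slc2a2, the glucose transporter of liver and islet cells, by 0.86 ± 0.149, and 1700022A21Rik by 0.99 ± 0.172. Cd79a, a B cell receptor component, was not well above background on any dflox array and was at least 1.42-fold higher (adjusted p = 0.0313 in limma). The other 6 were genes of odour, taste and pheromone receptors (Tas2r118, Olfr1211, Vmn1r227, Olfr1215, Olfr391 and Olfr1305), with changes from 0.87 to 1.17, and Olfr1211, not well above background on any dflox array, was at least 1.70-fold higher. Calls were lost on leaving out 1 array for Tas2r118 (dflox replicate 3, where it was 1.09), for Olfr1211 and Cd79a and Chil3 (among others GREmx1-cre replicates 3 and 4 and dflox replicate 3), and for Vmn1r227, Olfr1215 and Olfr1305 (6 of the 8 arrays each), with no change of sign.

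Receptor genes of these families were then counted together. Of 344 tested genes whose symbols start with Olfr, Vmn1r, Vmn2r, Tas1r, Tas2r or Taar, 40 rose and 0 fell in limma (11.6% called, against 3.16% of all genes), with a median change of 0.39 against 0.02 for all genes. This group of genes was chosen after its values were seen. Relative to the mean of all 15 arrays, their mean lay between -0.47 and -0.20 in dflox and between -0.07 and 0.16 in GREmx1-cre, with no overlap. The median stayed above 0 under median scaling (0.33, 22 rises) and quantile normalization (0.28, 18 rises), while normexp background correction left 0 rises and a median of 0.20. The 8 arrays fitted alone gave 20 rises. With no filter on dim probes, 29 of 1043 such genes rose and their median was 0.16, against 0.05 for all genes. Of the 40 called genes, 25 lay in the band of lowest level. In GRMREmx1-cre against MREmx1-cre the same genes had 40 rises and 6 falls, with a median of 0.38. The dimness of these genes and the shift of dim genes described above go with this result, and their part in it was not tested.

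Of 31 tested genes that corticosteroids switch on in many tissues, 5 fell, 1 rose and 25 did not pass (19.4% called, against 3.16% of all genes, of which 0.892% lower), with a median change of -0.16 against 0.02 for all genes. Beside Sgk1 and Plekhf1, the falls were Gjb6, the astrocyte gap junction protein connexin 30 (-0.54 ± 0.116, from levels between 2.998 and 3.44 to levels between 2.53 and 2.79), Errfi1, an inhibitor of the epidermal growth factor receptor (-0.36 ± 0.0759), and Mt1, a metal-binding protein (-0.29 ± 0.0623, on chromosome 8 within the stretch described above). Hif3a, an inhibitor of the hypoxia response, was called as a rise (0.68 ± 0.167), but its second probe gave -0.46. Some well-known targets, named here after their values were seen (as were Fos and Rasd1 below), did not pass: Fkbp5, a co-chaperone that lowers GR's hormone binding, differed by 0.36 ± 0.210 (adjusted p = 0.390 in limma), Tsc22d3, which encodes GILZ, by -0.31 ± 0.0963 (adjusted p = 0.107) and the clock gene Per1 by -0.27 ± 0.197 (adjusted p = 0.5). The mean of the list was between 0.24 and 0.32 above the mean of all arrays on the dflox arrays and between -0.07 and 0.19 on the GREmx1-cre arrays, with no overlap. Without MR the median of the list was -0.15, with 3 falls and 1 rise called. Of the 5 falls named here, only Mt1 was also called without MR (-0.39, adjusted p = 0.00861 in limma). The calls of Gjb6, Errfi1, Mt1 and Hif3a were lost without 1 array in 5, 4, 6 and 8 of the 8 cases.

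**Figure D4:**
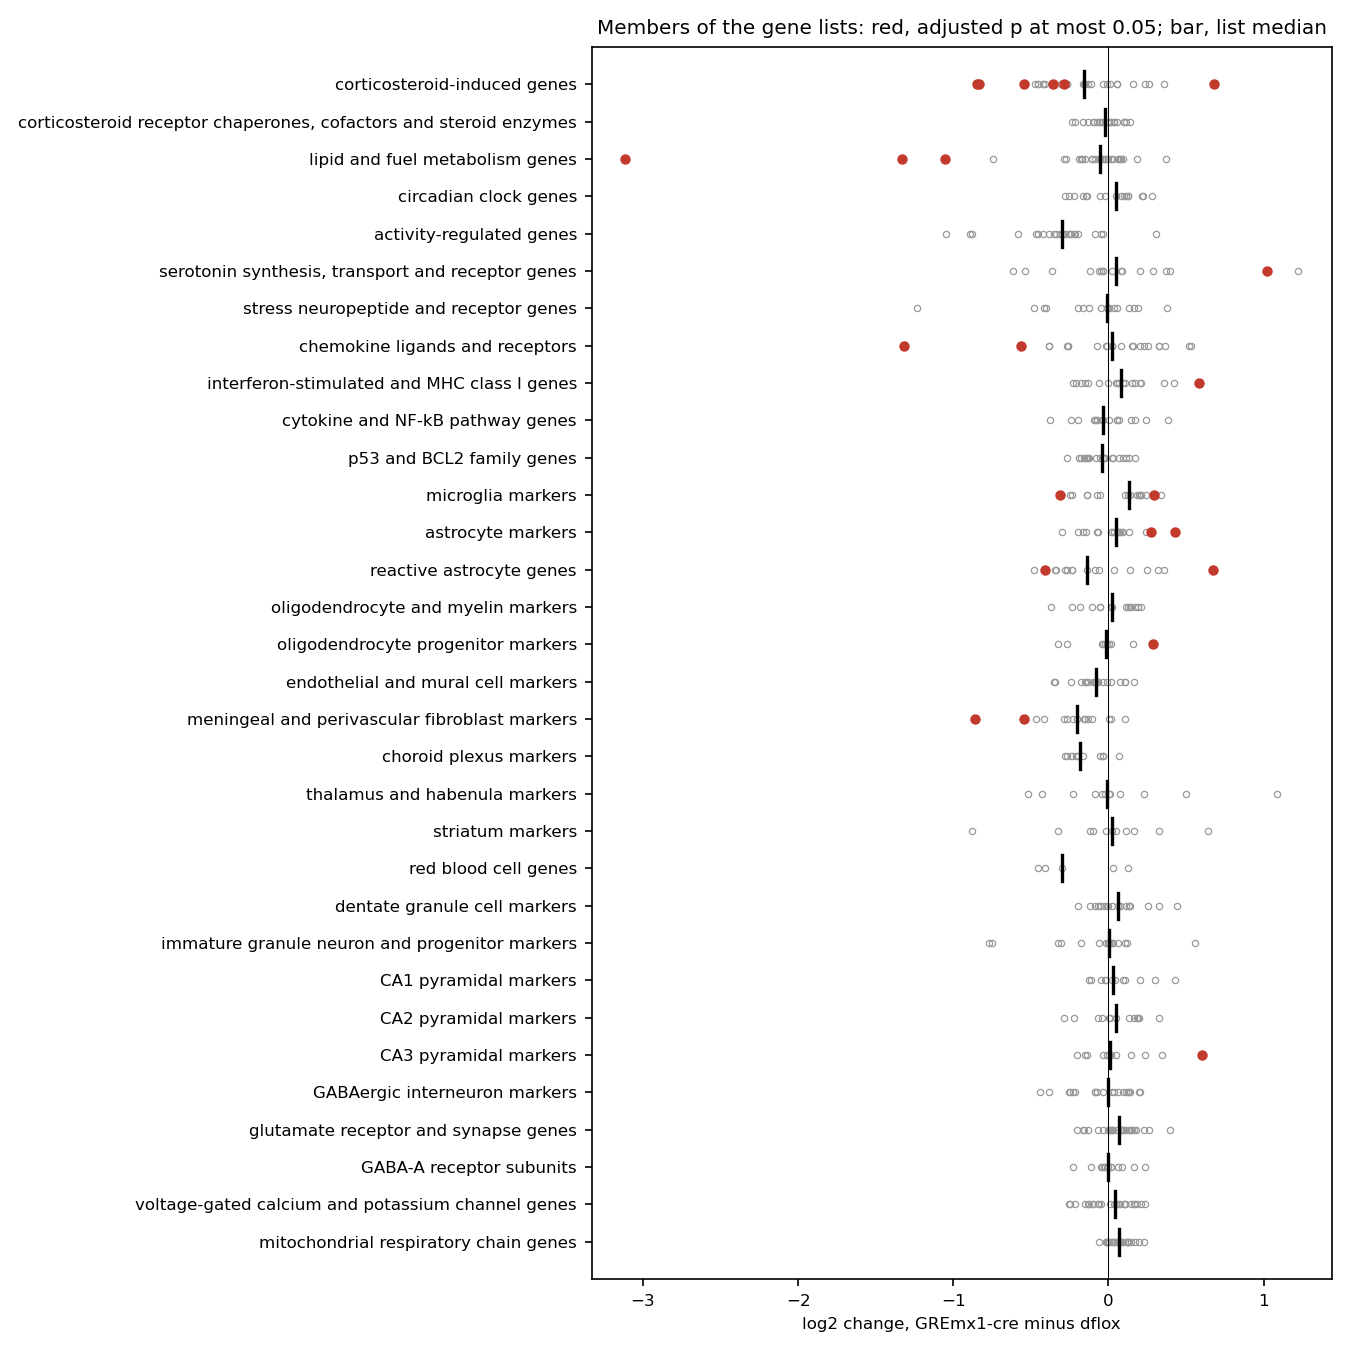
Log2 change of GREmx1-cre minus dflox (horizontal axis) for the tested members of 32 gene lists (rows). Red points are called genes, open points are not, and the black bar is the list's median. Corticosteroid-induced genes have 5 falls and 1 rise, Etnppl, in the row of lipid and fuel metabolism genes, is the point farthest to the left, and activity-regulated genes have a median of -0.30 with no call.

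Of 31 lipid and fuel metabolism genes, 3 fell, 0 rose and 28 did not pass (9.68% called, against 3.16% of all genes, of which 0.892% lower). The falls were Etnppl, Cyp4f15 and Lpl, the last on chromosome 8 within the stretch described above. The median of the list was -0.06, against 0.02 for all genes. No gene of cholesterol synthesis in the list passed. Of 25 activity-regulated genes, the immediate early genes that neurons switch on when they fire, 0 were called in limma while 12 had an unadjusted p below 0.05 (19.1% of all genes had one), and the list had the lowest median of those with over 10 tested genes, -0.30. Fos read from -1.61 to 0.32 in dflox and from -1.99 to -1.19 in GREmx1-cre, an uncalled difference of -1.05 ± 0.356 (adjusted p = 0.135 in limma). The mean of the list was -0.14, 0.44, 0.26 and 0.28 on the dflox arrays and -0.10, -0.03, -0.05 and -0.35 on the GREmx1-cre arrays, so dflox replicate 1 lay among the GREmx1-cre arrays. Without MR the median of this list had the opposite sign, 0.18, again with 0 calls, so the low median was not repeated there. Of 18 serotonin genes only Tph2 passed (5.56% called, against 3.16% of all genes). Circadian clock genes (17 tested), receptor chaperones and cofactors (22) and stress neuropeptides and their receptors (18) had no call. In lists this short, no call is near the 3.16% of all genes.

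Glial and vascular lists had few calls, in mixed directions, though in several short lists the share called was above the 3.16% of all genes. That share was 11.1% for astrocyte markers, 11.8% for reactive astrocyte genes and 13.3% for fibroblast markers. It was 10% for microglia markers and for oligodendrocyte progenitor markers. Among 19 endothelial and mural cell markers 0 were called. Of 18 astrocyte markers, Aqp4, the water channel of astrocyte endfeet (0.43 ± 0.102), and S100b, a calcium-binding protein (0.27 ± 0.0635), rose, and 16 did not pass. The GREmx1-cre and dflox arrays overlapped for Aqp4. Without MR, Aqp4 was also called as a rise (0.58, adjusted p = 0.0149 in limma) and S100b was not called (0.10). Of 17 reactive astrocyte genes, S100a10 rose, Vim, an intermediate filament, fell (-0.41 ± 0.101) and the median was -0.14. Of 20 microglia markers, C1qc, a subunit of complement C1q, rose (0.30 ± 0.0679), Gpr34, a lysophosphatidylserine receptor, fell (-0.31 ± 0.0551), and the median was 0.13. Of 10 oligodendrocyte progenitor markers, C1ql1 rose (0.29 ± 0.0628), and of 15 oligodendrocyte and myelin markers none was called (0 in limma, 3 at an unadjusted p below 0.05). Of 15 fibroblast markers, Col3a1 and Col1a2 (-0.54 ± 0.109) fell, with a list median of -0.20, and the list's mean on GREmx1-cre replicate 1 was -0.48 against 0.02 to 0.05 on the other 3 GREmx1-cre arrays and -0.19 to 0.35 on the dflox arrays. Without that replicate Col3a1 and Col1a2 were still called. Choroid plexus markers varied more, with a list mean that ran from -0.31 to 1.23 on dflox arrays and from -0.25 to 0.96 on GREmx1-cre arrays with no call among 12. The calls of Aqp4, S100b, Vim, C1qc, C1ql1 and Col1a2 were lost without 1 array in 6, 6, 8, 8, 5 and 3 of the 8 cases, and that of Gpr34 in 0.

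Immune lists changed at single genes. Among the chemokine ligands and receptors, Ccl17, on chromosome 8, fell as described above. Of 20 interferon-stimulated and MHC class I genes, Ifit3, an antiviral effector, rose (0.58 ± 0.137) and 19 did not pass (5% called, against 3.16% of all genes). The call of Ifit3 was lost without any 1 array except dflox replicate 4. Ifit3 was also called as a rise without MR (0.95, adjusted p = 0.00465 in limma). Cytokine and NF-kB pathway genes (17 tested) and p53 and BCL2 family genes (20) had no call, which in lists this short is near the 3.16% of all genes.

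Neuronal lists had almost no calls, which for any single list of this size is near the 3.16% called among all genes. Among markers of dentate granule cells (19 tested), immature granule neurons and progenitors (17), CA1 (12) and CA2 (13) pyramidal cells and GABAergic interneurons (20), none was called (0 in limma), with medians between -0.01 and 0.06. Of 12 CA3 markers (8.33% called), Homer3, a synaptic scaffold gene on chromosome 8, rose by 0.60 ± 0.117, and this call was lost without GREmx1-cre replicate 3 (0.58) or 4 (0.56). Glutamate receptor and synapse genes (28), GABA-A receptor subunits (13), voltage-gated calcium and potassium channel genes (26) and mitochondrial respiratory chain genes (31) had no call either. Of the lists named in this paragraph, 7 of 28 synapse genes, 6 of 26 channel genes and 9 of 31 respiratory chain genes had an unadjusted p below 0.05, against 19.1% of all genes.

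GRMREmx1-cre against MREmx1-cre shares no array with GREmx1-cre against dflox, and it measures loss of GR where MR is missing. It called 681 genes (2.98%), 538 higher (2.35%) and 143 lower (0.625%). Outside chromosomes 8 and 18 and the neighbours of Emx1, 408 genes with a symbol were called with MR present and 392 without MR, and 44 were called in both in the same direction, which is 10.8% of the first list and 11.2% of the second. Of these 44, 40 rose and 4 fell, and 13 more were called in opposite directions. Of the 108 falls with MR present, 67 also had a negative change without MR (62.0%, against 51.4% of all genes there), and of the 300 rises, 186 also had a positive change (62.0%, against 48.6%). The median of the falls was -0.33 with MR present and -0.03 without.

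With the same regions left out, the 4 genes that fell in both were Etnppl (-3.11 with MR present and -2.51 without MR), Cyp4f15 (-1.06 and -1.52), Gm9895 (-0.84 and -1.24) and Heph (-0.67 and -0.56). Mt1, on chromosome 8, was also called as a fall in both (-0.29 and -0.39). Etnppl read -1.10, -0.52, -0.80 and -1.32 in MREmx1-cre and -4.18, -3.46 and -2.69 in GRMREmx1-cre, again with no overlap (adjusted p = 0.00255 in limma). Among the rises were S100a10 (0.67 and 1.12), F9 (0.83 and 1.34), Tph2 (1.02 and 0.81), Gulo, an enzyme of vitamin C synthesis (0.84 and 1.30), 1700022A21Rik (0.99 and 1.56), Tex44 (0.68 and 1.29), Ip6k3, an inositol phosphate kinase (0.68 and 0.98), and the receptor genes Olfr103 (0.73 and 1.69) and Vmn1r82 (1.46 and 1.68). Tlx2, near Emx1, rose by 0.97 and 1.37. Ip6k3 and Vmn1r82 were not well above background on any dflox array, Ip6k3 was at least 1.24-fold higher in GREmx1-cre, and Vmn1r82 has no bound above 1. S100a10 read 2.18, 1.93, 1.77 and 1.85 in MREmx1-cre and 2.94, 3.22 and 3.01 in GRMREmx1-cre, so the 7 arrays that lack GR were all above the 8 that do not. With MR present, the call of Gulo was lost without 1 array in 3 of 8 cases, of Tex44 in 3, of Ip6k3 in 5 and of Olfr103 in 2, and without MR that of Heph was lost in 6 of 7 cases and of Tph2 in 3. Sgk1 changed by -0.37 without MR (adjusted p = 0.354 in limma), from MREmx1-cre levels between 2.79 and 3.49 that were already below 3 of the 4 dflox arrays.

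**Figure D5:**
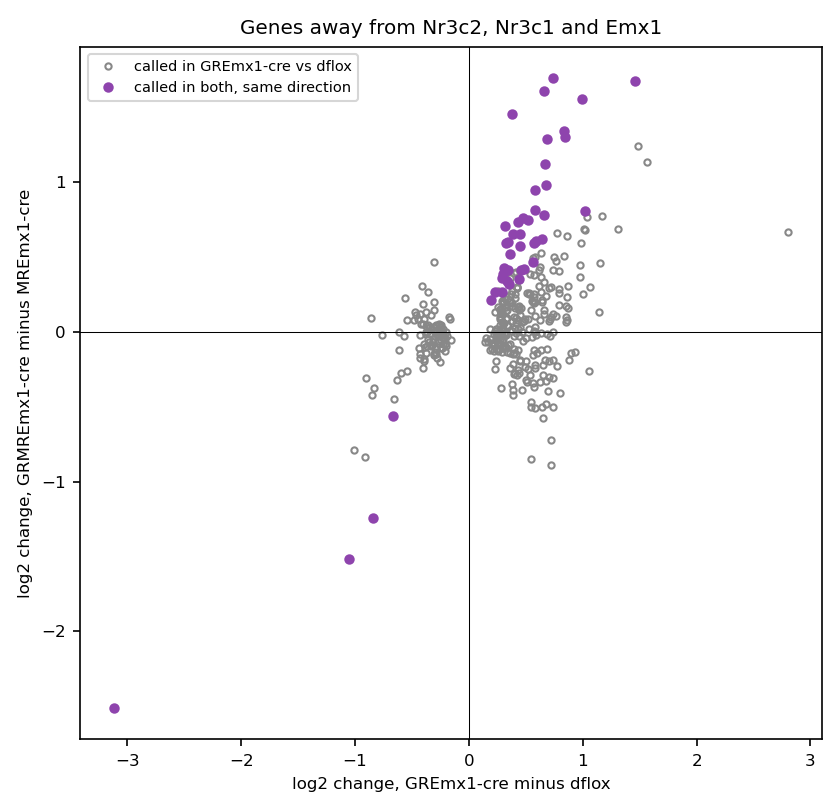
Log2 change of GREmx1-cre minus dflox (horizontal axis) and of GRMREmx1-cre minus MREmx1-cre (vertical axis) for the 408 genes called in the first comparison outside chromosomes 8 and 18 and the neighbours of Emx1. The 44 filled points were also called in the second comparison in the same direction, and Etnppl is the point at the lower left.

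The difference between the effect of GR loss without MR and that with MR present was called for 295 genes (1.29%). Of the 66 called genes in the chromosome 8 stretch, 25 had a called difference, and of the 408 genes away from it 58 of the rises and 9 of the falls had one. Large negative differences were those of Crnde (-2.76), on chromosome 8, and of Ugt3a2 (-1.61) and Tfap2b (-1.45), a transcription factor of neural crest and cerebellar interneurons. The 5 largest positive called differences were of Olfr73, Olfr218, Olfr1044, Olfr1101 and Tnfsf12, which encodes the cytokine TWEAK. Of these, only Olfr1101 (2.04) was well above background on more than 1 of the 8 arrays of dflox and GREmx1-cre, so the sizes of the other 4 are not measured, and none of the 5 was called in GREmx1-cre against dflox. Olfr401 and D130040H23Rik also had called negative differences, and neither was well above background on any dflox array. D130040H23Rik, on chromosome 8, was well above it on 3 of 4 GREmx1-cre arrays and was at least 1.68-fold higher there. Of the list members described above, the difference was called for Ccl17 (1.72 ± 0.255), Gpr34 (0.51 ± 0.0811), Vim (0.72 ± 0.149) and Rasd1, a Ras-like protein that dexamethasone induces (-1.41 ± 0.300). Rasd1 was not called with MR present (-0.01 ± 0.204) and fell by 1.42 without MR. The differences of Etnppl (0.61, adjusted p = 0.565 in limma), Cyp4f15 (-0.46, 0.303), Sgk1 (0.46, 0.406), Tph2 (-0.21, 0.699) and S100a10 (0.45, 0.0891) were not called, which does not show that the effects were equal.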

How the data were processed

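Total RNA of whole hippocampus was hybridised to 1-colour Agilent arrays (Cy3), 1 array per sample, per the labels' protocols. Spot intensities were the deposited processed signals of Agilent Feature Extraction 12.0, background-subtracted per the file headers, and the deposited value table equals them at all 45018 spots of each array, so no scaling by the authors was added. Other columns used were the deposited flags for spots above background, saturated or outlying. Control and outlier spots were left out, spots of 1 probe were averaged, and log2 values, computed from the deposited intensities, were centred on each array's 75th percentile. Of 41174 probes, 28223 have 1 gene symbol and 12951 none. A probe was kept if 3 or more of the 15 arrays, whatever their groups, had it well above background (30871). The probe of highest mean level stood for a gene (22862 genes). limma 3.58.1 in R 4.3.3 was fitted over all 15 arrays with 4 group means, with Benjamini-Hochberg adjustment and a threshold of 0.05; it was tested on simulated data. Scan-signal background correction by normexp used median signals, since mean signals were not used here, with an offset of 50. Gene order came from RefSeq (GRCm38.p6), another build than the array design's (mm9), so gene coordinates are not given. Slide, genotype and position cannot be separated beyond the fit with position as a block. Precision is limited by the number of arrays. The 32 gene lists (587 genes tested), the genes and the comparison were chosen with earlier results of these data known. Genes were named by rule: Nr3c1 and Nr3c2; among genes whose groups did not overlap and that were well above background throughout the brighter group, the 12 largest called rises and falls off the chromosome of Nr3c2, 6 of each on it and 3 of each near Emx1; the 12 strongest called in both backgrounds; the 5 largest differences each way; and called list members. The alternatives tried are given in the closing section. Some results are not reported here.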

Additional observations from a re-analysis of the deposited data

Results flagged for a closer look

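Of 152 groups of 4 arrays tested for an array far from the other 3, 10 stood apart, where chance flags about 1 in 20 groups. GREmx1-cre replicate 1 was the distant array for 4 genes: Ocel1 (1.37, against -0.82 to -0.68 on the other 3), Cyp4f15 (-1.12, against -0.88 to -0.85), Polr3e (1.36, against 1.25 on each) and Tlx2 (-1.59, against -2.12 to -2.06). GREmx1-cre replicate 3 was distant for Zfp330 (2.64, against 2.96 to 3.01) and replicate 4 for Hif3a (-2.12, against -2.76 to -2.72). Among dflox arrays, replicate 4 was distant for Il15 (-8.09, against -6.37 to -6.04) and Plekhf1 (-1.75, against -1.21 to -1.16), replicate 2 for Ocel1 (2.26, against 2.14 to 2.16) and replicate 1 for Gpr34 (-1.11, against -0.98 to -0.95).

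The effect of GR loss differed between the backgrounds without and with MR, by the difference test in limma, for 21 of the genes described. On chromosome 8 the differences were -0.62 for Nr3c2, -2.76 for Crnde, -2.92 for D130040H23Rik, -1.10 for Slc35e1, -1.02 for Gm10033, -0.89 for Zfp330, 1.72 for Ccl17 and 1.08 for Fam32a. For these 8 genes the changes without MR were between -0.19 and 0.40. The Crnde level on dflox replicate 2 was below that of every probe well above background on that array. Elsewhere the negative differences were -1.03 for Olfr391, -1.19 for Vmn1r47, -1.61 for Ugt3a2, -1.45 for Tfap2b, -1.62 for Olfr401 and -1.41 for Rasd1. The positive ones were 2.70 for Olfr73, 2.33 for Olfr218, 2.31 for Olfr1044, 2.04 for Olfr1101, 1.98 for Tnfsf12, 0.51 for Gpr34 and 0.72 for Vim. These are fitted values. D130040H23Rik and Olfr401 were not well above background on any dflox array, and Olfr73, Olfr218, Olfr1044 and Tnfsf12 were well above it on at most 1 of the 8 dflox and GREmx1-cre arrays, so the sizes given for these 6 genes are not measured sizes.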

How the results depend on the processing

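The 722 genes called in GREmx1-cre against dflox became 440 with median scaling, 467 with quantile normalization, 471 with no filter on dim probes, 346 with the 8 arrays fitted alone, 13 with normexp background correction (chosen in this form after seeing the data) and 236 with a 1.5-fold minimum, and ranged from 268 to 627 when 1 array was left out. For GRMREmx1-cre against MREmx1-cre, 681 became 13659 with normexp and 420 with the groups compared alone, and 230 (without GRMREmx1-cre replicate 2) to 548 with 1 array left out. For the difference between backgrounds, 295 became 182 with median scaling, 138 with no filter and 1 with normexp, and 83 to 434 with 1 array left out. The percent of Nr3c2 neighbours called, 24, became 4.5 with normexp and 13.5 with the groups compared alone, and 15.5 to 21.5 with 1 array left out. For Emx1 neighbours, 4 became 2.5 with the mean of a gene's probes, 0 with normexp and 1.5 with the groups compared alone, and 2 to 4.5 with 1 array left out. The causes were not tested. Nr3c1 stayed called under every alternative run.

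Replicate numbers give the position on the slide. Deviations of same-numbered dflox and GREmx1-cre arrays correlated at 0.09, 0.03, 0.07 and 0.12, against -0.13 to 0.07 for those with unlike numbers. All these correlations were small, and the numbers were not taken to pair the arrays. A shared effect of position was not tested. A fit with the number as a block gave 929, 801 and 307 calls in the 3 comparisons, 26 and 5.5 percent near Nr3c2 and Emx1, and -2.24 for Nr3c1. Of 66 called genes that the naming rule picked, between 11 and 29 lost the call when 1 array was left out, 60 with normexp, 32 with the groups compared alone, and no setting reversed a direction. Each genotype lay on its own slide, and dim probes near background limit what the rises can show.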
